A study of Mus musculus with 6 samples.

Results

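The genes described here encode subunits of protein phosphatase 2A (PP2A), the cellular enzyme that the small t antigen of SV40 binds. They are Ppp2ca, Ppp2cb, Ppp2r1a, Ppp2r1b, Ppp2r2a, Ppp2r5a, Ppp2r5c, Ppp2r5d and Ppp2r5e, 9 of the 18193 genes named on the arrays, and were taken by gene symbol. All of their probe sets were used, 29 of 35041 with a single gene symbol. Liver RNA of male mice on a hybrid B6SJL background, aged 32 to 37 days, was hybridised to Affymetrix mouse arrays of the 430A and 430B designs. WT mice had no transgene. LT mice carried ApoErtTA:TRE2-TAg and were induced to make the large T and small t antigens in the liver, and 17kT mice, also labelled ApoErtTA:TRE2-TAg, were induced to make the short form 17kT and small t. For 4 days the drinking water of all 3 genotypes, the WT mice too, held 25 µg/ml doxycycline and 2.5% sucrose. Each genotype gave 1 array per design, 6 arrays in all. Both transgenic genotypes are labelled as making small t and as carrying ApoErtTA. In a comparison with WT the effects of small t, of large T or 17kT, and of ApoErtTA therefore cannot be told apart. Neither small t itself nor PP2A protein or activity was measured.

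PP2A works as a complex of 3 kinds of subunit. A catalytic C subunit sits on a scaffold A subunit, and one of many regulatory B subunits directs the enzyme to its substrates. Small t binds the scaffold and displaces B subunits, chiefly of the B56 family, and this is a known route by which it raises signalling through kinases that PP2A restrains. That interaction is between proteins, and the arrays measure transcripts.

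With 1 array per genotype and design, no difference below has a replicate check, no p-value is given, and precision is limited by how few arrays there are. Signals are given after scaling and were compared within a design only. Signals below a floor, the design's median signal (90.4 for 430A, 140.5 for 430B), were set to it before ratios were taken, and "at least" before a fold marks a dimmer array at the floor. A probe set was counted as measured when its mean over the 3 genotypes lay above the floor, and as higher or lower when the floored signals differed at least 2-fold. Log2 ratios of probe sets of the same gene on the same design had an SD of 0.59 (LT against WT), 0.56 (17kT against WT) and 0.48 (LT against 17kT). It was taken over 3733 pairs, as the SD of the differences within pairs divided by the square root of 2, and so refers to 1 probe set. That spread lies within a sample and holds no difference between animals. For the 100 probe sets present on both designs, the median log2 ratio on 430A minus that on 430B was -0.25, 0.19 and -0.36 in the same order, so the designs were offset from each other.

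Other features of the samples moved with genotype, and their part in the results below was not tested. The Gapdh control's 3' signal over its 5' signal, a ratio that grows as RNA degrades, was 5.81 and 6.04 on the WT arrays. It lay between 2.85 and 3.53 on the others. Read on Actb instead, WT gave 2.57 on 430A and 2.29 on 430B, and LT gave 2.52 and 2.50. The 17kT arrays were lowest there, at 2.13 and 1.72. Actb therefore did not set WT apart from LT as Gapdh did. Fluidics station 2 was used for the LT arrays and station 1 for the rest, so station and the LT genotype cannot be told apart. In the deposited values checked, the WT and LT arrays had at most 1 decimal and the 17kT arrays up to 5 (430A) and 6 (430B). Whatever lies behind that difference cannot be told apart from the 17kT genotype. All 8 hepatocyte markers matched were measured. By their brightest probe sets, 1 was lower in LT (Apob, 2.74-fold) and 3 were lower in 17kT (Apoa1, Ttr and Serpinc1), with 0 higher. The summed 430A signal over 7 of them was 121319 in WT, 89585.5 in LT and 74375 in 17kT. All 6 matched markers of dividing cells were higher in LT and in 17kT than in WT, and their summed 430A signal was 1869 in WT, 13361 in LT and 16383 in 17kT. Against WT, 11.9% of all measured genes were higher and 9.58% lower in LT, and 10.8% higher and 9.35% lower in 17kT. Of 7 measured endothelial markers, 3 were lower in LT, and 2 lower and 1 higher in 17kT. The summed signal of the 8 matched was 2571 in WT, 1576 in LT and 1819 in 17kT. Of 3 matched erythroid markers only 1 was measured, Alas2, which read 1742 in WT, 124 in LT and 141 in 17kT. Of 6 measured stellate cell markers, 2 were lower in LT (Lrat 2.18-fold and Rgs5 2.68-fold) and 0 were called in 17kT. Of 9 macrophage markers, 1 was lower in LT (C1qc, 2.28-fold) and 0 were called in 17kT. Of 3 measured neutrophil markers, S100a8 read 35.6 in WT, 229 in LT and 69.2 in 17kT, at least 2.53-fold higher in LT than in either. The other measured markers were not called: S100a9 read 85.2, 171 and 71.5 in the same order, and Ngp 191, 184 and 132. The summed signal of the 4 matched was 323 in WT, 592 in LT and 279 in 17kT. None of 5 T and NK cell or 4 bile duct markers matched was measured. Of 4 matched B and plasma cell markers, 1 was measured, Cd79a, and it was not called.

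Of the 29 probe sets of PP2A subunits, 21 were measured and 8 were not, and each of the 9 genes had at least 1 measured probe set. In LT against WT, 4 of the 21 were higher, or 19.0%, against 11.6% of all measured probe sets, and 0 were lower, against 8.93%. In 17kT against WT, 3 of 21 were higher, or 14.3%, against 10.6% of all, and 0 were lower, against 8.59%. These counts are small and the shares stand near the background, so neither sets the subunits apart. The median log2 ratio of the 21 was 0.49 in both comparisons, where the median of all measured probe sets was 0.05 for LT and 0.10 for 17kT. The comparisons share the WT arrays. At a lower threshold of 1.5-fold, 9 of 21 were higher in LT (24.2% of all probe sets) and 0 lower (20% of all), and in 17kT 7 were higher (24.5% of all) and 1 lower (17.7% of all). In bulk tissue, more cells that hold a transcript and more transcript per cell cannot be told apart.

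**Figure D1:**
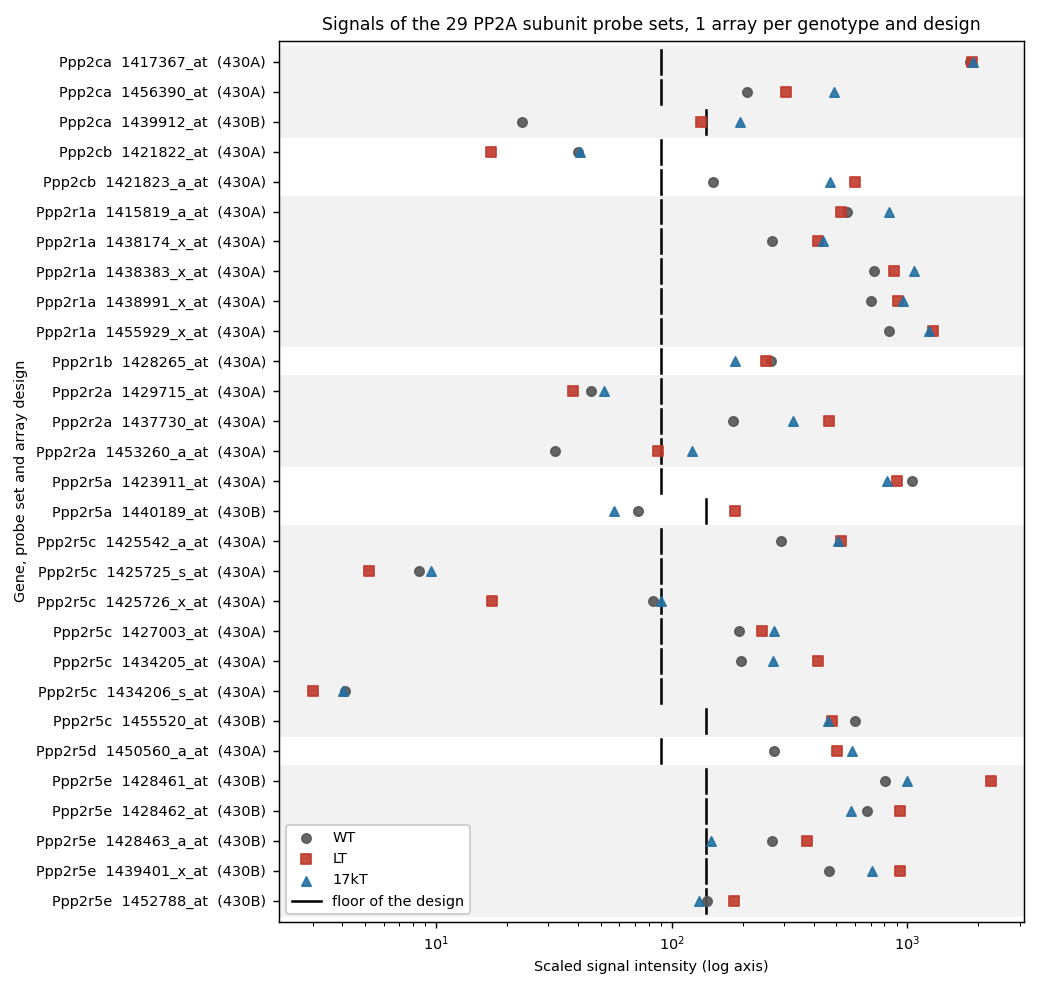
Scaled signal (log axis) of each of the 29 PP2A subunit probe sets on the WT, LT and 17kT array of its design, with 1 array per point and the floor of the design as a black bar. WT is the lowest point for Ppp2cb probe set 1421823_a_at at 150, while the 3 genotypes overlie each other at 1844 to 1900 for Ppp2ca probe set 1417367_at.

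Catalytic subunit transcripts differed between the paired genes. Ppp2cb, which encodes the beta form of the C subunit, showed the largest ratio of any subunit. Its probe set 1421823_a_at read 150 in WT, 603 in LT and 472 in 17kT. WT was the low array and both transgenic livers lay well above it, 4.01-fold higher in LT and 3.14-fold in 17kT. Of the measured 430A probe sets, 1.65% had a ratio at least as high in LT and 3.44% in 17kT. Under the 6 array scalings tried the log2 ratio ranged from 1.75 to 2.48 in LT and from 1.38 to 2.36 in 17kT, past 2-fold in each. The size depends on the floor, since WT was dim: with the floor at the 75th percentile the log2 ratio was 1.11 in LT and 0.76 in 17kT, the latter short of 2-fold. A second Ppp2cb probe set, 1421822_at, read 40.1, 17.1 and 40.7 in WT, LT and 17kT, all under the floor, so the difference rests on 1 probe set.

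Ppp2ca encodes the alpha form of the same subunit, which is nearly identical as a protein. Its bright probe set 1417367_at read 1844 in WT, 1886 in LT and 1900 in 17kT, with log2 ratios against WT of 0.03 and 0.04. The 3 livers were within 1.03-fold of each other there. A dimmer probe set of Ppp2ca, 1456390_at, read 210 in WT, 307 in LT and 489 in 17kT, which put 17kT 2.33-fold above WT and LT at a log2 ratio of 0.55. Scaled to the probe sets on both designs, that 17kT value was 0.95 and missed the threshold. The third, 1439912_at on 430B, read 23.3 in WT and 133 in LT, both under the floor, and 194 in 17kT. Thus 1456390_at was brighter in both transgenic livers, more so in 17kT, while the brightest Ppp2ca probe set differed little.

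The scaffold is the subunit that small t contacts, and neither of its genes was called. Ppp2r1a, the main form of the A subunit, had 5 probe sets, all on 430A and all measured. Its brightest probe set not of the _x_at kind (such sets can bind several genes), 1415819_a_at, read 557 in WT, 525 in LT and 832 in 17kT, with log2 ratios against WT of -0.09 in LT and 0.58 in 17kT. The _x_at probe sets read from 267 to 838 in WT, from 418 to 1280 in LT and from 437 to 1238 in 17kT. Across all 5, the log2 ratio to WT ran from -0.09 to 0.65 in LT (mean 0.37, SD 0.30) and from 0.46 to 0.71 in 17kT (mean 0.58, SD 0.09). All 5 were brighter in 17kT than in WT, by less than 2-fold in this scaling. When arrays were scaled to the hybridisation controls all 5 passed 2-fold in 17kT, at log2 ratios of 1.17 to 1.42. The median of all measured probe sets was then 0.47. Ppp2r1b, the less abundant beta form of the scaffold, read 263 in WT, 252 in LT and 186 in 17kT on its only probe set. Its log2 ratio was -0.06 in LT and -0.51 in 17kT, smaller in size than the SD given above, and turned to 0.41 and 0.20 when scaled to the hybridisation controls.

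Ppp2r2a encodes B55 alpha, the regulatory subunit that directs PP2A to substrates of the mitotic kinase Cdk1 as cells leave mitosis. Probe set 1437730_at read 183 in WT, 464 in LT and 328 in 17kT. LT was 2.54-fold higher than WT (log2 ratio 1.34, and 1.09 to 1.82 under the 6 scalings), and 17kT stood between them at a log2 ratio of 0.84. With the floor at the 75th percentile the LT value was 0.74 and no longer passed. Of its other probe sets, 1429715_at lay under the floor on each array, at 38.2 to 51.7. Probe set 1453260_a_at was under the floor in WT (31.9) and LT (87.5) and read 123 in 17kT.

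**Figure D2:**
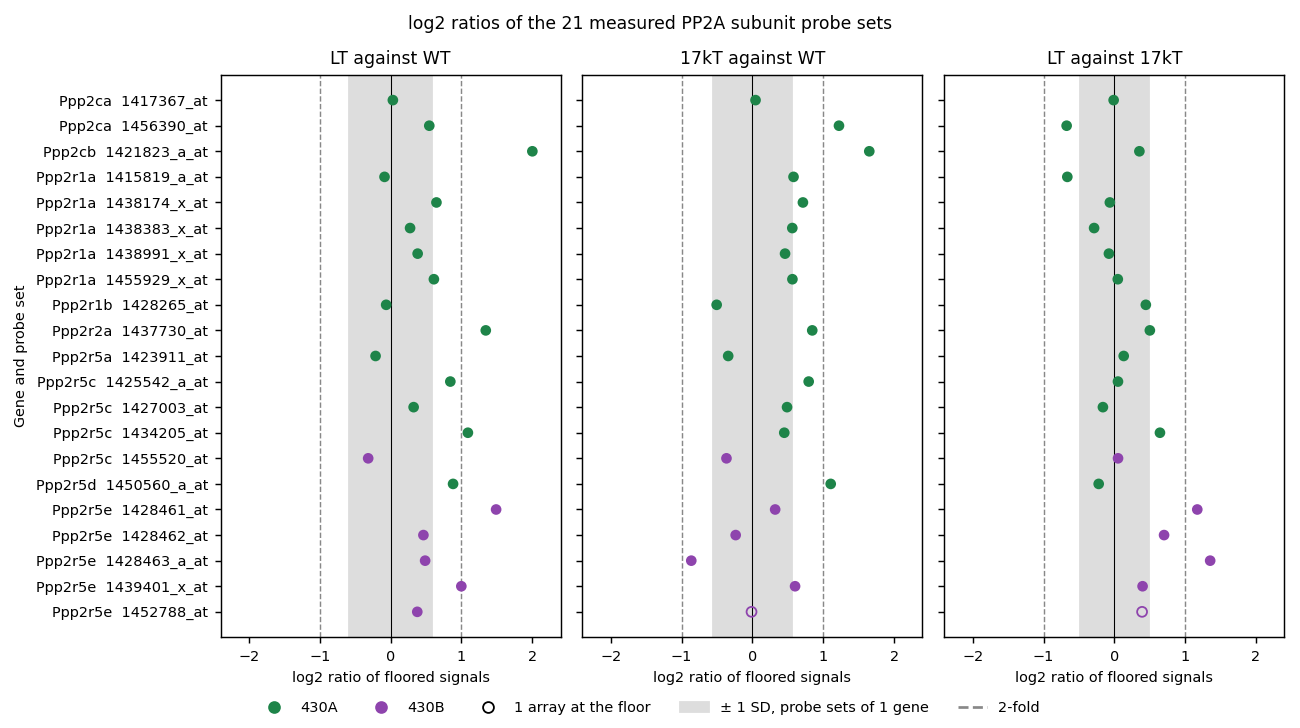
Log2 ratio of floored signals for each of the 21 measured probe sets in the 3 comparisons, coloured by array design, with 1 SD between probe sets of a gene shaded and 2-fold dashed. The Ppp2cb point is the one farthest right in LT against WT (4.01-fold) and in 17kT against WT (3.14-fold), and the 5 Ppp2r5e points lie above 0 in LT against 17kT, between 0.39 and 1.35.

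The B56 subunits, the family whose place on the scaffold small t takes, did not move alike. Ppp2r5d, which encodes B56 delta, read 272 in WT, 501 in LT and 584 in 17kT on its single probe set, 1450560_a_at. The 17kT liver was 2.15-fold higher than WT (log2 ratio 1.10), and LT had a log2 ratio of 0.88. Under the 6 scalings the 17kT value ran from 0.84 to 1.81 and passed 2-fold in 3 of them, and with the floor as a pseudocount it was 0.90 and did not pass. Ppp2r5a, which encodes B56 alpha, read 1043 in WT, 900 in LT and 822 in 17kT on 1423911_at. Its log2 ratios of -0.21 and -0.34 were also smaller than that SD and turned to 0.26 and 0.37 when scaled to the hybridisation controls. A 430B probe set of Ppp2r5a, 1440189_at, was under the floor in WT (71.9) and 17kT (57.1) and read 186 in LT.

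Upstream windows of Ppp2r5d and Ppp2r5a are printed for a motif search. Large T and 17kT both bind the retinoblastoma family, which holds back E2F transcription factors. The 250 bases upstream of a start site were therefore searched on both strands for the E2F site letters TTTGGCGC, TTTCCCGC, TTTGCCGC and TTTCGCGC (RefSeq, GRCm38.p6). The first is Ppp2r5d at chr17:46705027-46705276 on the minus strand, the window of its more upstream start. The second is Ppp2r5a at chr1:191397042-191397291 on the minus strand. Ppp2r5d was picked after its values were seen, as the only gene with a window on hand that passed 2-fold on its brightest probe set, and Ppp2r5a as the only one with a match. Both are printed 5′ to 3′ along the gene, and capitals mark a match.
Ppp2r5d: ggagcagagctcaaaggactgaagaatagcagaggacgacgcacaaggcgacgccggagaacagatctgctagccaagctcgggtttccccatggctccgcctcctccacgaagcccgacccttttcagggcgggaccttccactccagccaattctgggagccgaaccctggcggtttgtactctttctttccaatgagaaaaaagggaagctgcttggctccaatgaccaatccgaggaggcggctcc
Ppp2r5a: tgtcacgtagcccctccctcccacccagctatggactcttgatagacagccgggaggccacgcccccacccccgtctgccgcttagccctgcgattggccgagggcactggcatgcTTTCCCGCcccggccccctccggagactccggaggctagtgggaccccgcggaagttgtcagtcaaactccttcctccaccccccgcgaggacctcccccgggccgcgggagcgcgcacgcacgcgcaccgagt
The Ppp2r5a window held 1 match, TTTCCCGC, beginning 134 bases before the start site, and the Ppp2r5d window held none. Windows were on hand for 6 of the 9 genes, 8 windows in all, and the match in Ppp2r5a was the only one among them. Of all 32851 windows of this length, 1.86% held at least 1 of the 4 sites. A match is a description of the sequence, not of binding, and nothing about the signals is read from it.

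Ppp2r5c encodes B56 gamma, the form most often tied to transformation by small t. It had 7 probe sets, of which 4 were measured. On 430A, 1425542_a_at read 292 in WT, 524 in LT and 506 in 17kT, a log2 ratio of 0.84 in LT and 0.79 in 17kT. Probe set 1434205_at read 197, 419 and 268 in the same order, which put LT 2.13-fold above WT (log2 ratio 1.09, past 2-fold in 4 of the 6 scalings) and 17kT at 0.45. Probe set 1427003_at read 194, 243 and 272, with log2 ratios of 0.33 and 0.49. These 3 agreed in sign, with WT the lowest array each time. The fourth, 1455520_at on 430B, went the other way: it read 597 in WT, 480 in LT and 463 in 17kT, log2 ratios of -0.32 and -0.37. The remaining 3, 1425725_s_at, 1425726_x_at and 1434206_s_at, stayed under the floor on each array, at 90.3 or less.

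Ppp2r5e encodes B56 epsilon, and its 5 probe sets were all on 430B and all measured. The brightest, 1428461_at, read 802 in WT, 2254 in LT and 1002 in 17kT. LT was the high array, 2.81-fold above WT (log2 ratio 1.49), and 17kT had a log2 ratio of 0.32. Probe set 1439401_x_at read 465 in WT, 930 in LT and 706 in 17kT, just short of 2-fold in LT. Probe set 1428462_at read 677, 934 and 575, and 1428463_a_at read 267, 374 and 146. The dimmest, 1452788_at, read 142 in WT, 184 in LT and 131 in 17kT, the last under the floor. All 5 were brighter in LT than in WT in this scaling, with log2 ratios from 0.38 to 1.49 and a mean of 0.76, below 2-fold. Scaled to the probe sets on both designs, 1428461_at was at 1.01 and 1439401_x_at at 0.52, while 1428463_a_at was at 0.01, 1428462_at at -0.01 and 1452788_at at -0.10. In 17kT they ran from -0.86 to 0.60, with 2 above 0 and 3 below.

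The comparison of LT with 17kT sets against each other 2 livers that are both labelled as making small t and share no array. Of the 21 measured probe sets, 2 were higher in LT, or 9.52%, against 4.58% of all, and 0 were lower, against 4.28%. The median log2 ratio was 0.05, and -0.02 over all measured probe sets. Both called probe sets belong to Ppp2r5e: 1428461_at, 2.25-fold higher in LT, and 1428463_a_at, 2.55-fold. The other 3 Ppp2r5e probe sets had log2 ratios of 0.70, 0.40 and at least 0.39, so LT was the brighter liver on all 5. The 430B design, the only one with this gene, read LT against 17kT higher than 430A did by the offset given above. Scaled to the probe sets on both designs, the 5 ratios were 0.78, 0.31, 0.96, 0.01 and 0.10 in the order 1428461_at, 1428462_at, 1428463_a_at, 1439401_x_at and 1452788_at. None then passed 2-fold, and all stayed above 0. Among the rest, Ppp2r1a probe set 1415819_a_at and Ppp2ca probe set 1456390_at were lower in LT than in 17kT at log2 ratios of -0.66 and -0.67, and Ppp2r5c probe set 1434205_at stood at 0.64. At 1.5-fold, 4 probe sets were higher in LT (13.1% of all) and 2 lower (14.3% of all).

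**Figure D3:**
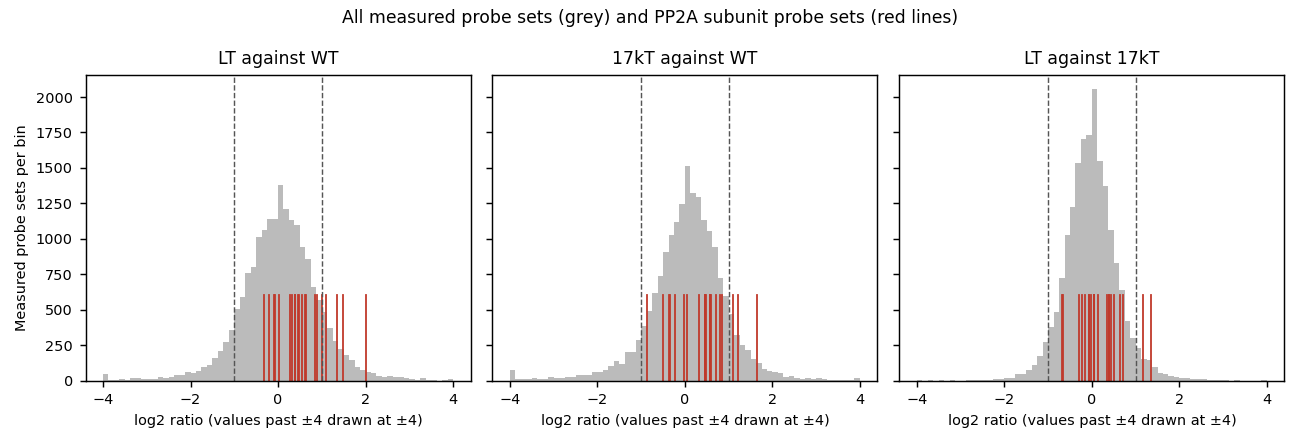
Histogram of the log2 ratios of the 18692 measured probe sets (grey, values past 4 drawn at 4) with the 21 PP2A subunit probe sets as red lines, 2-fold dashed. In LT against WT the subunits lie from -0.32 up to the 4.01-fold of Ppp2cb and in 17kT against WT from -0.86 to 1.65, inside the range of the grey distribution.

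Taken 1 probe set per gene, the brightest, 3 of 9 genes were higher in LT than in WT (Ppp2cb, Ppp2r2a and Ppp2r5e), against 11.9% of the 11865 measured genes, and 0 lower, against 9.58%. In 17kT these were 2 of 9 (Ppp2cb and Ppp2r5d), against 10.8% of genes, and 0, against 9.35%, and in LT against 17kT 1 was higher (Ppp2r5e), against 4.69% of genes, and 0 lower, against 4.37%. Further genes around PP2A were set beside them in the same way, 74 entries in 7 lists, of which 69 matched a gene. Medians stand beside those of all measured genes, 0.05 in LT and 0.09 in 17kT against WT. Counts of genes called in these lists stand beside the same shares of all measured genes. Those were 11.9% higher and 9.58% lower in LT, and 10.8% higher and 9.35% lower in 17kT. For LT against 17kT they were 4.69% and 4.37%. The lists are small, so 1 or 2 genes called do not set a list apart.

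Of 10 other B subunit genes, 6 were measured and 1 was higher in each transgenic liver, with a median log2 ratio of 0.40 in LT and 0.27 in 17kT. It was Strn3, a striatin that joins PP2A to a kinase assembly, which read 168 in WT, 584 in LT and 588 in 17kT (3.49-fold and 3.51-fold), while its other 2 measured probe sets gave 0.34 to 2.16 in LT and 0.41 to 1.87 in 17kT. Ppp2r3a, a calcium-binding B subunit, read 236 in WT, 310 in LT and 76.0 in 17kT, at least 2.21-fold higher in LT than in 17kT. That probe set is on 430B, which read LT against 17kT higher than 430A did. The other measured Ppp2r3a probe set gave a log2 ratio of 0.96 in that comparison, short of 2-fold. Strn, another striatin, read 1030 in WT, 789 in LT and 1008 in 17kT. Ppp2r2b, Ppp2r2c, Ppp2r3d and Ppp2r5b were not measured.

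Of the assembly and methylation genes, 0 of 5 were called in any comparison, with medians of 0.31 in LT and 0.03 in 17kT. They include Lcmt1, which methylates the C subunit tail (322 in WT, 176 in LT and 234 in 17kT), and Ppme1, which removes that methyl group (296, 303 and 295). Of the STRIPAK partners of the striatins, 1 of 8 measured was higher in LT, Mob4 (1497 in WT and 2995 in LT, just past 2-fold, with 0.42 and 1.07 on its other 2 measured probe sets), and 0 in 17kT, with medians of 0.71 and 0.36. Stk25, a kinase of that assembly, was 2.02-fold higher in LT than in 17kT.

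Inhibitors of PP2A and their kinase had 2 of 8 measured genes higher in each comparison with WT and 0 lower (median 0.80 in LT and 0.41 in 17kT). Set, an inhibitor protein also known as a histone chaperone, read 525 in WT, 1468 in LT and 987 in 17kT, 2.79-fold higher in LT with a log2 ratio of 0.91 in 17kT. Its other 2 measured probe sets gave 0.71 and 1.06 in LT, and -0.01 and 0.65 in 17kT. Cip2a, an inhibitor that is abundant in many tumours, read 4.40 in WT, 208 in LT and 237 in 17kT, at least 2.30-fold and at least 2.62-fold higher. Pabir2 read 338, 672 and 962, just short of 2-fold in LT and 2.85-fold higher in 17kT. Mastl, the kinase that turns Ensa and Arpp19 into inhibitors of PP2A with B55, read 24.1, 67.7 and 142 and was not measured by the rule.

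Binding partners of B56 subunits had 5 of 8 genes higher in LT and 6 of 8 in 17kT, and 0 lower (median 1.53 and 1.87). The checkpoint kinase gene Bub1b was at least 17.4-fold and at least 14.7-fold higher. Its other measured probe set gave smaller log2 ratios, 2.72 in LT and 2.46 in 17kT. Sgo2a, a shugoshin that guards centromere cohesion, was 4.64-fold and 5.26-fold higher. Its relative Sgo1 was at least 3.70-fold and at least 3.43-fold higher, with log2 ratios of 1.52 and 1.44 on its other measured probe set. Cdca2 was 4.32-fold and 3.92-fold higher (other probe sets gave 0.03 to 1.83 in LT and 0.77 to 1.97 in 17kT). The kinesin gene Kif4 was 2.27-fold and 5.73-fold higher. These 5 are genes of dividing cells, whose markers were higher in the same arrays. Ccng1, a cyclin that brings B56 to Mdm2, was 2.17-fold higher in 17kT, had a log2 ratio of -0.94 in LT, and was 4.17-fold lower in LT than in 17kT. Its other 2 measured probe sets gave -0.53 and 0.64 in LT against WT, of opposite sign, 2.02 and 2.84 in 17kT against WT, and -2.55 and -2.20 in LT against 17kT. Kif4 was 2.53-fold lower in LT than in 17kT. Ccng2 read 229, 209 and 218.

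Related phosphatases of the same enzyme family had 3 of 16 genes higher in LT (Ppp4r2 2.86-fold, Ppp4r1 2.21-fold and Ppp3cb 2.04-fold) and 4 of 16 in 17kT (Ppp1cb 2.21-fold, Ppp4r2 2.18-fold, Ppp1ca 2.13-fold and Ppp1cc 2.12-fold), with 0 lower. Their medians of 0.59 and 0.39 were lower than those of the 9 subunit genes taken the same way, 0.84 and 0.58. Over all 21 measured subunit probe sets the median was 0.49 in LT and in 17kT. No median over all probe sets was taken for the phosphatases, so that value has no counterpart here. The second Ppp4r2 probe set gave -0.25 in LT and -0.32 in 17kT. The other 2 measured Ppp1cb probe sets gave 0.58 and 0.94 in 17kT, both short of 2-fold, and those of Ppp3cb 0.54 and 1.09 in LT. Of 11 kinase pathway genes that PP2A acts on, 1 was higher in LT and in 17kT and 0 were lower (median 0.32 and 0.17): Axin1, a scaffold of beta-catenin breakdown, which read 128, 390 and 384 (3.04-fold and 2.99-fold). Akt1, whose product PP2A dephosphorylates, read 380, 432 and 481.

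**Figure D4:**
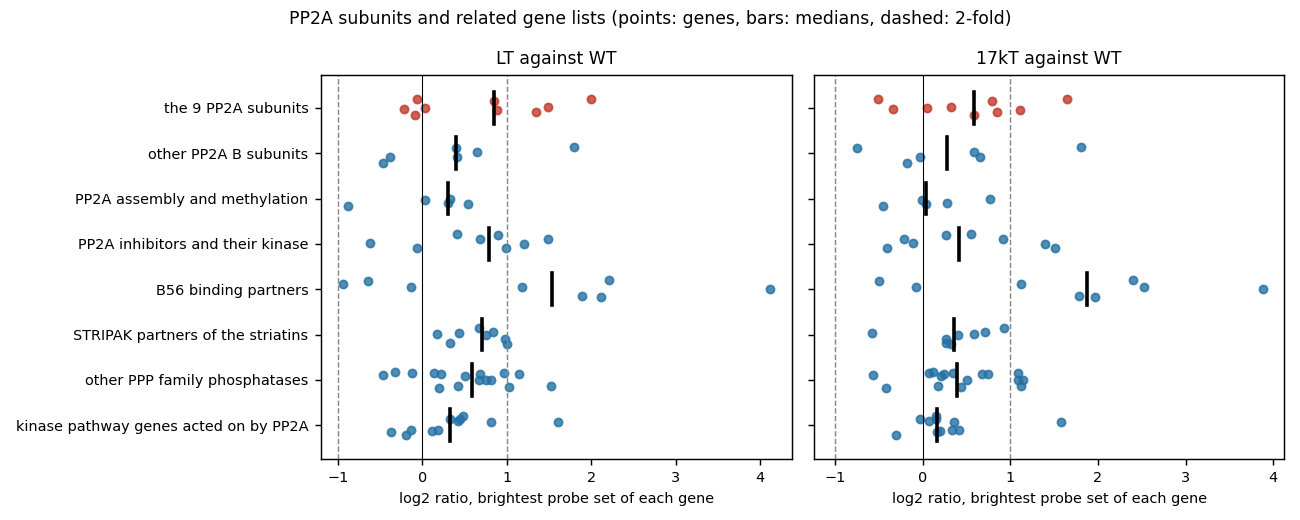
Log2 ratio of each measured gene, by its brightest probe set, for the 9 PP2A subunits (red) and 7 related lists (blue), in LT and 17kT against WT, with list medians as black bars and 2-fold dashed. The subunit medians are 0.84 and 0.58, and the B56 binding partners lie farthest right at 1.53 and 1.87.

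How arrays were brought to a common level set the size of the shift. Under the 6 scalings the median of the 21 subunit probe sets ran from 0.13 to 0.86 in LT against WT and from 0.23 to 1.17 in 17kT against WT, and the median of all measured probe sets from -0.26 to 0.42 and from -0.08 to 0.47. The distance between these medians, subunits minus all, ran from 0.39 to 0.47 in LT and from 0.32 to 0.70 in 17kT against WT. Apart from quantile normalization, each scaling multiplies an array by a single factor, set for each design apart. Such a factor moves the subunits and the other probe sets of an array alike. A distance that stays above 0 therefore does not show that the subunits stand above the rest.

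**Figure D5:**
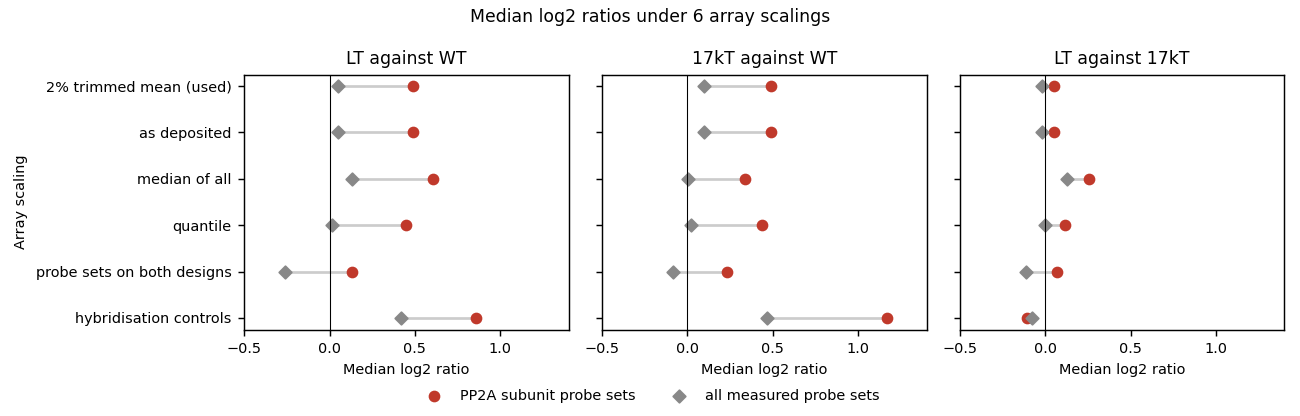
Median log2 ratio of the 21 PP2A subunit probe sets (red) and of all measured probe sets (grey) under 6 array scalings in each comparison. In LT and 17kT against WT the red points run from 0.13 to 0.86 and from 0.23 to 1.17. The grey points run from -0.26 to 0.42 and from -0.08 to 0.47. Most scalings multiply an array by 1 factor, set for each design apart, and red and grey do not always shift by the same amount.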

How the data were processed

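The authors deposited linear signal intensities for each probe set, and the submitters' processing notes name MAS5, without a version. The authors had scaled each array: the 2% trimmed mean was 250.03 to 250.12. Other deposited settings files were read for the fluidics station only. The labels do not state how many animals contributed to a sample.

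Gene names came from the platform annotation, with symbols updated by gene identifier through RefSeq GRCm38.p6. Signals were rescaled within a design to a common 2% trimmed mean, floored at the median and put on the log2 scale (Python 3.11.15, pandas 2.3.3). Members of gene lists were represented by their brightest probe set relative to the floor, and an _x_at set only where a gene had no other. All subunit probe sets are shown. Of other listed genes, those past 2-fold and a few others were named. The subunits and lists were chosen with earlier results of these data known. Of 5 pathway entries and 5 marker entries with no match, none was analysed here. The code was tested on simulated arrays. Alternatives were other scalings, floors, filters, fold rules, probe set choices and single designs.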

Additional observations from a re-analysis of the deposited data

How the results depend on the processing

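The 1 array per genotype and design, not signal over background alone, limits every value, and 8 of 29 subunit probe sets lay under the floor on average. Counts below are of subunit probe sets past the rule, of which there were 4 in LT against WT, 3 in 17kT against WT and 2 in LT against 17kT. Scaled to the probe sets on both designs they were 3, 1 and 0, and the LT median against WT fell to 0.13. Scaled to the hybridisation controls they were 10, 12 and 3, with medians of 0.86 in LT and 1.17 in 17kT against WT. The medians of all measured probe sets were then 0.42 and 0.47. Over all genes, 2739 were then higher in LT and 3006 in 17kT against WT, where the main scaling had 1413 and 1283. The share of all probe sets past the rule was not taken for the other scalings and floors. Quantile normalization gave 1 in LT against 17kT. A floor at the 25th percentile gave 8 (1 of them lower), 5 and 4 (1 lower), a floor at the 75th percentile 2, 1 and 1, and the floor as a pseudocount 1 in 17kT against WT and 1 in LT against 17kT. The 1.5-fold rule gave 9, 8 and 6, and the 3-fold rule 1, 1 and 0. With 1 probe set per gene the LT median against WT was 0.84 and the count in LT against 17kT 1. The 430A design alone gave 0 in LT against 17kT. The 430B design alone gave 1 in LT against WT and 0 in 17kT against WT. There the 17kT median turned to -0.13, and the median in LT against 17kT was 0.55. It held 6 measured probe sets, 5 of them of Ppp2r5e. The cause of the other shifts was not tested. Of 243 values of single genes under alternatives, 194 moved by less than the spread between the designs, 49 by more, and 0 called values changed sign. The share of called genes that were higher in LT against WT was 55.4% here, 27.2% scaled to the probe sets on both designs and 81.4% scaled to the hybridisation controls. In 17kT against WT it was 53.6%, 38.8% and 79.8%, and in LT against 17kT 51.8%, 25.0% and 64.3%, and 73.4% scaled to the median of all probe sets. No paired analysis was possible because each genotype has 1 array per design.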
